A study of Mus musculus with 6 samples.

Results

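Reads of immunoglobulin variable (V) segments, the gene pieces that encode most of the antigen-binding part of an antibody chain, were examined in RNA from GFP-positive regulatory T cells (Treg cells) of mouse spleen. The members are the rows of the count table named Ighv (heavy chain), Igkv (kappa light chain) or Iglv (lambda light chain) that had at least 20 reads summed over the 6 libraries. There were 47 members, 23 Ighv, 23 Igkv and 1 Iglv, among 348 V rows and 54232 rows in all. The 6 libraries came from wild-type mice (WT, 3 libraries) and from mice with a conventional knockout of BAF60b (KO, 3 libraries), a subunit of the SWI/SNF chromatin remodelling complex that Smarcd2 encodes. A conventional knockout is not limited to Treg cells, so B lineage cells of the KO mice carried it too. The labels do not say which gene drives GFP, nor the strain, the age or whether each library is a separate mouse. The p-values below therefore reflect only how these libraries vary, which may be technical. Reads of Smarcd2 numbered 3729, 4173 and 3807 in WT 1, 2 and 3, against 1157, 1131 and 1335 in KO 1, 2 and 3, so every KO library was below every WT library.

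A working antibody gene is built in developing B cells, where the RAG recombinase joins a V segment to a J segment (with a D segment in between for the heavy chain) and the transcript is spliced to a constant region. Each B cell or plasma cell clone uses its own V segments, and plasma cells, which secrete antibody, hold very large amounts of these transcripts. T cells rearrange T cell receptor genes with the same enzyme, and complete immunoglobulin gene rearrangement is characteristic of B lineage cells.

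V segment reads were few. Totals were 18167053 to 22502804 reads per library, of which 258, 285 and 368 were V reads in WT 1, 2 and 3 and 817, 905 and 354 in KO 1, 2 and 3. KO 1 and KO 2 therefore stood apart from the other 4 libraries, and KO 3 lay within the WT range. The T cell label was met by high levels of its markers, with 10207 to 13455 reads of Foxp3, the lineage-defining transcription factor, and 14439 to 18546 of Cd4. Of the B cell genes listed, Ms4a1 (CD20) had 2 to 9 reads per library and the transcription factor gene Pax5 0 to 7, while Cd79a had 36 to 56, Cd22 42 to 164, Bank1 82 to 125, Cd79b 151 to 251 and Cd72 260 to 394. The 47 members held between 70.9% and 84.5% of the V reads of a library. The other 301 V rows had at most 19 reads each, and 223 of them had 0. The rows just outside the minimum were Ighv3-1 and Igkv8-27 with 19 reads, and those just inside it were Ighv1-15, Ighv1-58, Igkv14-100 and Igkv6-32 with 20.

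Igkv1-117 was the member on which the comparison of the genotypes turned, and its V exon is shown (up to its first 300 bases) with those of 3 other members so that a reader can judge how far reads could be told apart. The sequences are those of the GENCODE M21 transcripts (mm10, 5′ to 3′ on the gene's strand), which matched the deposited start and end of all 47 members. Capitals in the first pair mark the bases at which Igkv1-117 (chr6:68121515-68121814, plus strand) and Igkv1-110 (chr6:68270955-68271254, plus strand) differ from each other. In Igkv1-135 (chr6:67610196-67610495, plus strand) they mark differences from Igkv1-117, and in Igkv10-96 (chr6:68631963-68632260, minus strand) differences from its closest V row, Igkv10-94.
Igkv1-117: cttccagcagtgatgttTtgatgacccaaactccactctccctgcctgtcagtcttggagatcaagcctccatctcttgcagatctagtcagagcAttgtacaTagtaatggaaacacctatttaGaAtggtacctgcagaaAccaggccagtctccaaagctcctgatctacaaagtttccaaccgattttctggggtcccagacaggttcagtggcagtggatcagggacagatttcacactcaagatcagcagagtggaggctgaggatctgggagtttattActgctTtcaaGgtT
Igkv1-110: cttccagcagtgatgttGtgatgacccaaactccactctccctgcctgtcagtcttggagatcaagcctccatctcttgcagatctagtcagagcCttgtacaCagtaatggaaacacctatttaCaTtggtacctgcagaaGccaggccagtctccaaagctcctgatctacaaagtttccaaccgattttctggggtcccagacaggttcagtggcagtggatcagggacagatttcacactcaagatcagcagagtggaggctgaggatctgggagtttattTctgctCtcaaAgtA
Igkv1-135: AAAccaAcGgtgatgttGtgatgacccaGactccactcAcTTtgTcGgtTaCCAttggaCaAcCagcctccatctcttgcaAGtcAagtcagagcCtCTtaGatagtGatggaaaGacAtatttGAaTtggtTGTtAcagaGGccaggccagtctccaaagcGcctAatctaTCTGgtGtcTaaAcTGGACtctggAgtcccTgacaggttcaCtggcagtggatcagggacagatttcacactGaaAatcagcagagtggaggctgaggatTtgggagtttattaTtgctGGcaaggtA
Igkv10-96: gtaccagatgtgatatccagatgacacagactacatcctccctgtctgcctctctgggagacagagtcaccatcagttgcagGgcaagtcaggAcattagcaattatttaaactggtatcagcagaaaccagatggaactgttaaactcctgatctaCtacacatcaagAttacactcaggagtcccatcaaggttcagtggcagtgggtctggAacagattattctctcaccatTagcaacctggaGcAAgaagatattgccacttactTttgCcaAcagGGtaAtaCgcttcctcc

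Igkv1-117 and Igkv1-110 differed at 10 of the exon's 313 bases (96.8% identity), all within the stretch shown, and their longest stretch without a difference was 142 bases. Igkv1-135 was more distant, with 79.6% identity to Igkv1-117 and no shared run above 30 bases. Igkv10-96 had 94.6% identity to Igkv10-94. Over all members, the identity of the V exon to the closest other V row had a median of 94.4% (range 74.9% to 99.0%), and 21 members had a relative of at least 95%. The labels and processing notes used here do not state how reads that fit several places were counted, so counts of single segments with close relatives are uncertain. All 47 members are annotated as V genes, none as pseudogenes, with 347 to 405 exonic bases. None of their exons overlaps an exon of another gene.

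Igkv1-117 was close to absent in WT and present in every KO library. WT 1, 2 and 3 gave 1, 1 and 0 reads of it, whereas KO 1, 2 and 3 gave 49, 50 and 67. All KO libraries were above all WT libraries, and KO 3, the KO library with few V reads, had the most. Scaled to library size after TMM normalization (CPM), WT averaged 0.0342 ± 0.0298 CPM and KO 2.66 ± 0.27 CPM (SD, n = 3 each). The ratio of the summed counts, 166 against 2 reads and scaled for library size, was 78.8 with an exact 95% interval of 21.5 to 656.0, which covers counting error only. The log2 fold change was 6.06 (SE 0.48, adjusted p = 0.000244, edgeR quasi-likelihood test, Benjamini-Hochberg over 13602 genes). Of the 47 members, 12 had enough reads in enough libraries to be tested and 1, Igkv1-117, passed. Of all tested genes, 6.45% passed (3.25% as higher and 3.2% as lower in KO). Igkv1-117 passed the filter on low counts through its KO libraries alone, so the count of 1 in 12 carries no weight, and the result rests on its reads per library. With no filter, 1624 of 24676 genes were called, and 19 of the 47 members were called higher in KO. That fit called members carried by 1 library, such as Igkv4-68, seen in KO 1 alone. Igkv1-117 also passed there (adjusted p = 8.01e-19, edgeR), which therefore lends its result no weight. With a total of 2 WT reads the fitted fold is imprecise in size. Scaled to the Igkv reads of each library in place of the whole library, an alternative chosen after seeing the data, the log2 fold change was 4.95 (adjusted p = 0.0105, edgeR). Without both KO 1 and KO 2, also chosen after seeing the data, it was 6.21 (adjusted p = 6.73e-05, edgeR), with the lone KO library assumed to vary like WT.

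As a share of Igkv reads, Igkv1-117 took 11.3% in KO 1 (Wilson 95% interval 8.65% to 14.6%), 10.2% in KO 2 (7.86% to 13.3%) and 32.2% in KO 3 (26.2% to 38.8%). In WT 1 it took 0.79% (0.14% to 4.36%) and in WT 2 0.93% (0.17% to 5.10%). In WT 3 it had 0 of 170 reads, which allows a share of up to 1.76%. The 3 KO shares lay above the 3 WT shares. In reads per library Igkv1-117 was nearly level across the KO libraries, so its share was highest in KO 3, which had 208 Igkv reads against 434 in KO 1 and 488 in KO 2.

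The close relative Igkv1-110 had another pattern. It had 3, 2 and 2 reads in WT and 30, 98 and 0 in KO, so KO 3, with the most Igkv1-117 reads, had none of Igkv1-110 and the groups overlapped. Igkv1-135 had 0, 15 and 22 reads in WT and 15, 32 and 5 in KO, and its log2 fold change was 0.46 (SE 0.83, adjusted p = 0.820, edgeR). Of the other 10 rows of the Igkv1 family, 8 had 0 reads. As a family, with Igkv1-117 included, Igkv1 took 3.97%, 16.8% and 14.7% of Igkv reads in WT and 21.9%, 36.9% and 36.1% in KO.

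**Figure D1:**
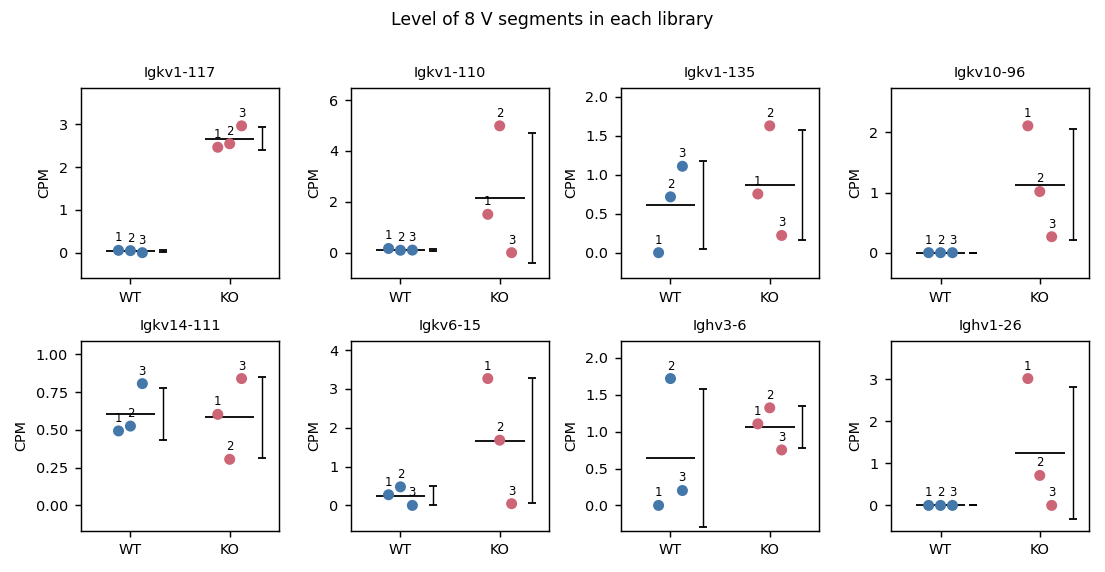
Level of 8 V segments in CPM (y axis, each panel with its own scale) in the 3 WT and 3 KO libraries (points, numbered by library), with the mean as a line and the SD as a bar beside it. Igkv1-117 separates the groups with little spread among the KO libraries (2.66 ± 0.27 CPM), while Igkv1-110, Igkv10-96, Igkv6-15 and Ighv1-26 vary widely within KO.

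Members seen in every library of a genotype, with at least 1 read in each, were few. Of the 47, 16 were seen in all 3 KO libraries and 6 in all 3 WT libraries, and 4 of these were seen in all 6. KO 1 and KO 2 gave 685 and 765 member reads, against 183 to 294 in the other libraries. More reads make a member easier to see and to reach 20 summed reads. The numbers 16 and 6 therefore do not measure a difference between the genotypes. The 4 were Igkv14-111, Iglv1, Ighv6-3 and Ighv6-6. Igkv14-111 had similar counts in both genotypes, with 9, 11 and 16 reads in WT and 12, 6 and 19 in KO, and its log2 fold change was -0.05 (SE 0.43, adjusted p = 0.967, edgeR). Iglv1 had 4, 2 and 22 reads in WT and 37, 19 and 1 in KO, so its high and low libraries lay in both genotypes (log2 fold change 0.97, SE 0.95, adjusted p = 0.630, edgeR). Ighv6-3 had 4, 5 and 32 reads in WT and 12, 1 and 2 in KO, and Ighv6-6 had 4, 22 and 3 in WT and 11, 2 and 1 in KO. Both Ighv6 members were thus carried by a WT library each, WT 3 and WT 2.

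Another 12 members were seen in all KO but not all WT libraries, 7 Igkv and 5 Ighv. Besides Igkv1-117, 3 of these had every KO count above every WT count, and they are named for that after their values were seen. A member needs reads in every KO library to meet this, so the 3 stand against all 47 members, not against 12. Igkv10-96 had 0 reads in each WT library and 42, 20 and 6 in KO, at least 21.5-fold higher in KO when set against 3 counts over the WT group. Igkv3-10 had 0, 0 and 1 reads in WT and 30, 2 and 8 in KO. Ighv1-72 had 0 in each WT library and 15, 6 and 2 in KO, at least 7.28-fold higher by the same floor. In all 3 the level was highest in KO 1, and KO 3 had at most 8 reads. They did not pass the filter on low counts of edgeR and so have no test there. DESeq2, which sets its own filter, tested Igkv10-96 and gave a log2 fold change of 6.91 (adjusted p = 4.65e-05). In edgeR fits that left out 1 library and so tested Igkv10-96, the adjusted p was 0.00346 without KO 3 and 0.0681 to 0.0859 without a WT library. Because a member with these counts passes such a filter through its KO libraries alone, the number called among them carries no weight. Among tested genes 12.6% had all KO values above all WT values. The 3 members are not among the tested genes, so this share does not measure how unusual they are.

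The other members seen in all KO libraries overlapped with WT. Igkv8-21 had 0, 14 and 3 reads in WT and 12, 31 and 21 in KO, where KO 1 lay below WT 2 (log2 fold change 1.84, SE 0.73, adjusted p = 0.191, edgeR). Igkv4-91 had 19, 0 and 0 reads in WT and 21, 17 and 21 in KO, even across KO and present in WT 1 (log2 fold change 1.51, SE 0.91, adjusted p = 0.402, edgeR). Without WT 1 the call of Igkv4-91 was made (adjusted p = 0.0134, edgeR). Since WT 1 held all its WT reads, that call carries no weight. Ighv3-6, the Ighv member with the highest mean share over the libraries, had 0, 36 and 4 reads in WT and 22, 26 and 17 in KO, so the highest library was a WT one (log2 fold change 0.67, SE 0.83, adjusted p = 0.718, edgeR). Igkv6-15 had 5, 10 and 0 reads in WT and 65, 33 and 1 in KO, high in KO 1 and KO 2 and not in KO 3. Ighv10-1 had 0, 0 and 21 reads in WT and 9, 2 and 32 in KO, where it made up 22.1% of the Ighv reads of KO 3. In WT alone, Igkv1-110 and Igkv6-23 were seen in all 3 libraries without being seen in all KO libraries, and Igkv6-23 had 15, 3 and 9 reads in WT and 1, 6 and 0 in KO.

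Other segments came mostly from a single library. Of the 47 members, 29 had over 50% of their reads in 1 library. That library was KO 2 for 13 of them and KO 1 for 8, the libraries with the most V reads. In 9 members at least 90% of the reads came from 1 library. Igkv16-104 (23 reads) and Igkv14-100 (20 reads) were seen in WT 3 alone, and Igkv4-68 (21 reads) in KO 1 alone. Igkv5-39 had 45 of its 46 reads in KO 1, and Igkv15-103 had 40 of 43 in KO 2. Ighv1-76 had 23 of 25 reads in KO 2, Ighv5-17 and Ighv1-39 each 20 of 21, and Ighv1-15 had 19 of 20, all in KO 2. Segments carried by 1 library in this way say nothing about the genotype. Members at 0 in all WT libraries numbered 8, and 2 were at 0 in all KO libraries. The WT libraries had fewer V reads than KO 1 and KO 2, so these numbers do not measure a difference between the genotypes either.

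In single libraries, a few segments made up much of a locus. Ighv1-26 had 0 reads in every WT library and 60, 14 and 0 in KO, and its 60 reads were 17.4% of the Ighv reads of KO 1. Igkv16-104 and Igkv14-100 together with Igkv4-72 (27 reads) and Igkv1-135 (22 reads) were the 4 most abundant Igkv members of WT 3. In WT 1 the leading Igkv members were Igkv12-98 (22 reads) and Igkv4-91 (19 reads), and neither had a read in WT 2 or WT 3. Across both genotypes 31 of the 47 members reached at least 10% of their locus in some library, 14 Ighv, 16 Igkv and Iglv1. Exon lengths differ little, and Ighv3-6 and Igkv1-117 led their loci both by share and by share per kb of exon.

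**Figure D2:**
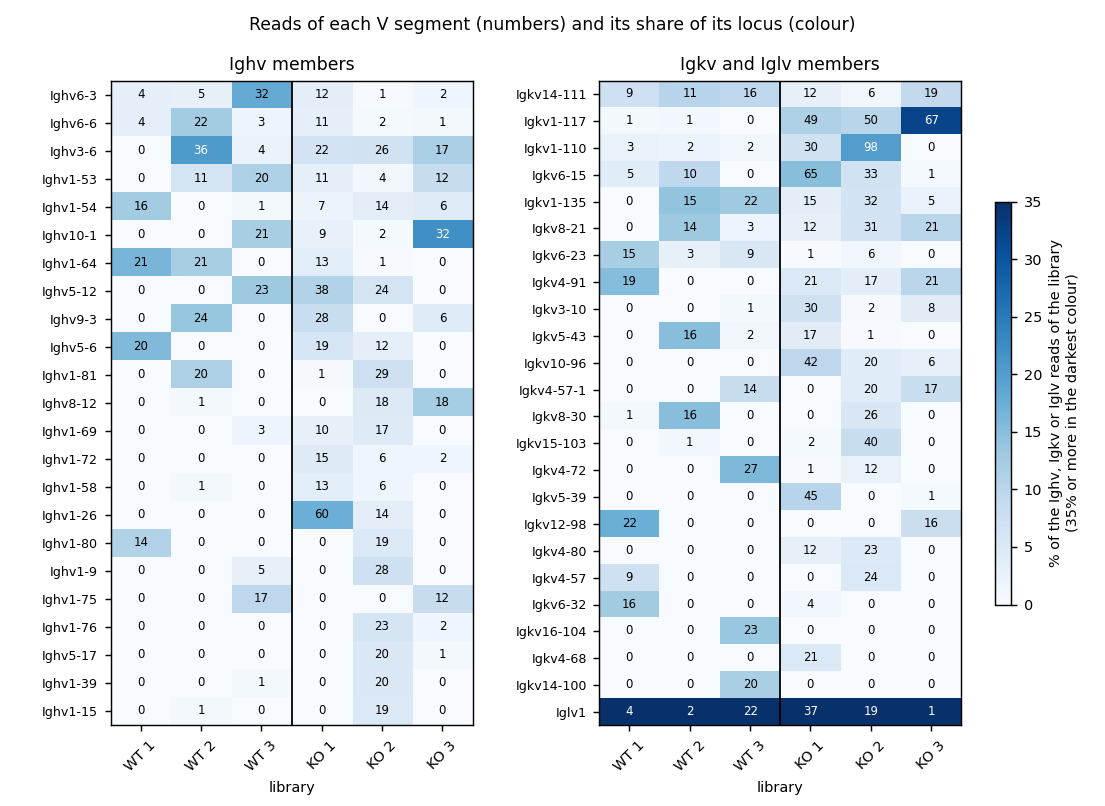
Reads of each of the 47 members (numbers in the cells) in the 6 libraries (columns, WT left of the line and KO right), coloured by the share of the Ighv, Igkv or Iglv reads of that library. Rows run from members seen in all 6 libraries at the top to members of 1 library at the bottom, apart from Iglv1 in the last row, and the KO 2 column fills most of the lower Ighv rows.

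Summed over members, V reads were higher in 2 of the 3 KO libraries. Igkv members summed to 5.48, 4.25 and 7.01 CPM in WT and 19.04, 22.4 and 8.05 CPM in KO, so all KO libraries were above WT, KO 3 by a small margin. The means were 5.58 ± 1.38 and 16.5 ± 7.52 CPM (exact permutation p = 0.1, two-sided, the smallest that 3 against 3 allows, adjusted p = 0.45 over 9 such tests). With the largest segment of each library left out, which in KO 3 is Igkv1-117, KO 3 fell to 5.09 CPM, within the WT range of 3.49 to 5.65. Ighv members summed to 4.33, 6.78 and 6.55 CPM in WT and 13.5, 15.5 and 4.91 CPM in KO, where KO 3 lay among the WT values (exact permutation p = 0.3, adjusted p = 0.54). Iglv1, the lambda member, overlapped between the groups too (exact permutation p = 0.7, adjusted p = 0.788). In bulk RNA, more cells of a type and more RNA per cell cannot be told apart.

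Some constant region and plasma cell genes were high in the same libraries, KO 1 and KO 2, and others were not. Igkc, the kappa constant region, had 139, 136 and 139 reads in WT and 354, 446 and 163 in KO, so KO 1 and KO 2 were high and KO 3 was near WT (log2 fold change 1.17, adjusted p = 0.0697, edgeR). Igha, the constant region of IgA, had 231, 297 and 438 reads in WT and 960, 948 and 346 in KO, with the same 2 libraries high (log2 fold change 1.18, adjusted p = 0.101, edgeR). Jchain, which links IgA and IgM into polymers, had 78, 103 and 138 reads in WT and 373, 361 and 109 in KO (log2 fold change 1.36, adjusted p = 0.0961, edgeR). Without KO 3, the KO library near WT, all 3 passed (highest adjusted p = 0.000827, edgeR), which follows from leaving that library out. Over 14 settings other than the main one, each passed in 2. The lowest log2 fold changes among those settings were 0.04 for Igkc, -0.09 for Igha and -0.16 for Jchain. Ighg1 had 4, 0 and 1 reads in WT and 52, 52 and 0 in KO. Ighg2b, another IgG constant region, was highest in WT 2, with 29, 186 and 4 reads in WT and 48, 115 and 39 in KO. Ighg3 had 37, 27 and 24 reads in WT and 33, 13 and 14 in KO, and none of the 6 constant region genes tested passed.

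Sdc1, which encodes the plasma cell surface protein CD138, had the largest fold change of the plasma cell genes tested. It had 3, 5 and 3 reads in WT and 31, 39 and 14 in KO, with all KO libraries above WT (log2 fold change 2.84, SE 0.53, adjusted p = 0.0123, edgeR). The call of Sdc1 was lost without any 1 of the WT libraries (highest adjusted p = 0.0695, edgeR) and without both KO 1 and KO 2 (adjusted p = 0.168, edgeR). Of the 12 plasma cell genes listed, 9 were tested and 2 passed, Sdc1 and Irf4, both higher in KO. Since Sdc1 was tested through KO alone, this count carries no weight beside the 6.45% of all tested genes that passed. Irf4 rose by less than Sdc1 (log2 fold change 0.28) with a lower adjusted p (0.00742, edgeR). Irf4, like Xbp1 and Prdm1 on that list, is also expressed by Treg cells. The remaining tested genes of the list did not pass and went both ways. Txndc5, Creld2, Xbp1 and Prdm1 had log2 fold changes of -0.06, -0.11, -0.14 and -0.13. Those of Fam46c, Derl3 and Jchain were 0.09, 1.08 and 1.36. Every KO library was below WT for Xbp1 and Prdm1 and above WT for Derl3. Among the untested genes, Mzb1 had 1 to 6 reads per library and Tnfrsf17 0 to 2. The summed list was 782.1 to 801.0 CPM in WT and 782.5 to 898.2 CPM in KO. Its largest part was Fam46c, at 314 to 417 CPM over the libraries. Jchain was 4.27 to 18.7 CPM and Sdc1 0.15 to 1.98 CPM, so the sum says little about either. Of the 16 B cell genes, 6 were tested, and Cd22 rose (adjusted p = 0.0174, edgeR) while Cd79b, which encodes a chain of the B cell receptor complex, fell (adjusted p = 0.0106, edgeR). The call of Cd79b was lost without WT 1 (adjusted p = 0.0571, edgeR), and that of Cd22 without WT 1 or WT 2 (0.0594 and 0.0653) or without both KO 1 and KO 2 (0.082). The summed B cell list was 39.4 to 44.5 CPM in WT and 34.5 to 42.2 CPM in KO. Markers of other cells were also high in KO 2, with summed macrophage genes at 75.0 CPM (11.4 to 33.7 in the other libraries), erythroid genes at 10.99 CPM (0.38 to 2.69) and dendritic cell genes at 1.78 CPM (0.088 to 1.005). The part of RNA from any of these cells in the V segment results was not tested.

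Ighm, the constant region of IgM, differed in kind from the V segments. It had 27503 to 32068 reads in every library, and the log2 fold change was -0.09 (adjusted p = 0.564, edgeR). Ighv reads amounted to 0.421%, 0.546% and 0.640% of Ighm reads in WT and to 1.23%, 1.28% and 0.471% in KO. For kappa, Igkv reads were 0.79 to 1.22 times the Igkc reads in WT and 1.09 to 1.28 times in KO. Like Ighm, none of the 4 heavy chain J segments was called, with 78 to 291 reads each per library. No kappa J segment had more than 5 reads. Of the recombination and surrogate light chain genes, Rag2 and Vpreb2 had 0 reads, Rag1 at most 3 and Vpreb1 3 to 11. Dntt, which encodes the enzyme that adds bases at V(D)J joins, had 37, 27 and 45 reads in WT and 22, 27 and 17 in KO (log2 fold change -0.79, adjusted p = 0.205, edgeR). Of the octamer factors, which bind V promoters, Pou2f2 (Oct-2) rose by 0.27 on the log2 scale (adjusted p = 0.0112, edgeR, lost without WT 1 or WT 2, highest adjusted p = 0.0796), and the coactivator gene Pou2af1 changed by -0.45 in the fit without passing the test (adjusted p = 0.102, edgeR).

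**Figure D3:**
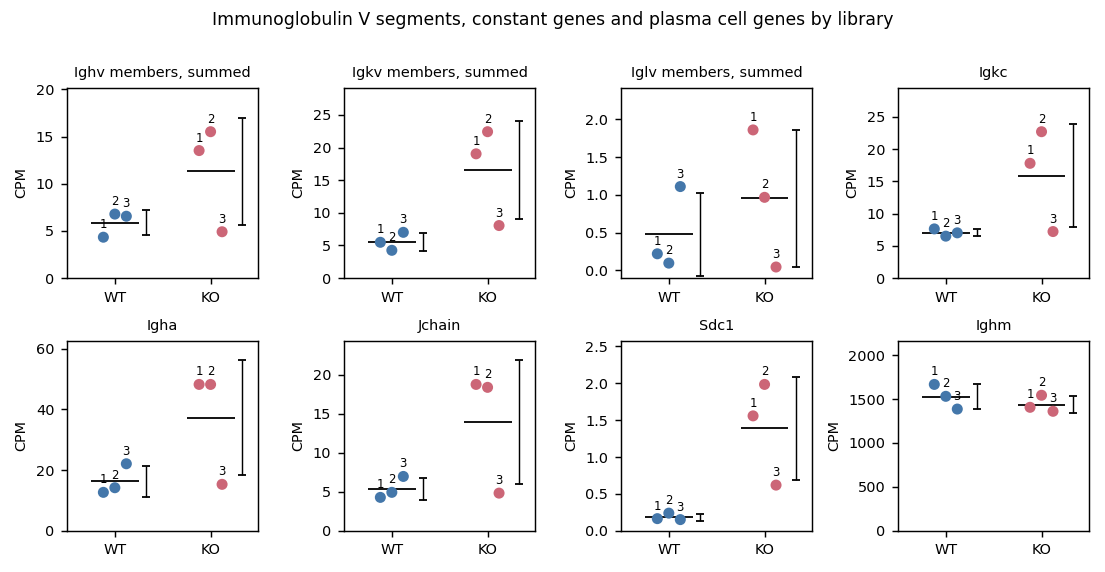
Summed CPM of the Ighv, Igkv and Iglv members and CPM of Igkc, Igha, Jchain, Sdc1 and Ighm (y axes, each panel with its own scale) in each library (points, numbered), with the mean as a line and the SD as a bar. KO 1 and KO 2 are high for Ighv, Igkv, Igkc, Igha and Jchain while KO 3 lies near WT, and Ighm lies between 1361 and 1667 CPM in all 6.

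The spread of reads over segments was compared next. The effective number of members, the exponential of the Shannon entropy of their shares, counts how many equally abundant segments would give the same spread. For Ighv it was 5.11, 6.80 and 7.25 in WT and 11.5, 16.5 and 7.69 in KO. All KO libraries were above WT (exact permutation p = 0.1, the smallest possible, adjusted p = 0.45). Members were chosen by reads summed over all libraries, so libraries with more V reads weighed more in the choice. The KO libraries with the most V reads are favoured by this, so the test over members cannot decide on a difference between the genotypes. KO 3 was above the highest WT library by a small margin, and the groups overlapped when all Ighv rows were used (KO 3 12.5, WT 3 13.2) and by the inverse Simpson index (KO 3 6.13, WT 3 6.16). Thinned to 79 reads of Ighv members per library, the lowest total, the expected number of members seen was 6, 8.65 and 10.1 in WT and 14.1, 17.7 and 11.2 in KO. Thinning keeps the same members, so it does not remove the effect of how they were chosen. For Igkv the effective number was 7.44, 7.48 and 8.04 in WT and 12.04, 12.3 and 6.98 in KO, so KO 3 was the lowest of all 6 (exact permutation p = 0.4, adjusted p = 0.6).

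The largest segment took 16.4% to 20.6% of Ighv in WT and 17.4%, 7.46% and 22.1% in KO 1, 2 and 3, so KO 2 was below all WT libraries and KO 3 above them (exact permutation p = 0.8, adjusted p = 0.8). Of Igkv it took 14.95% to 17.5% in WT and 14.98% to 32.2% in KO (exact permutation p = 0.3, adjusted p = 0.54). The segment in question was a different member in each KO library for Igkv: Igkv6-15 in KO 1, Igkv1-110 in KO 2 and Igkv1-117 in KO 3. Of the reads of light chain members, Iglv1 held 6.57 ± 6.2% in WT and 4.52 ± 4.19% in KO (SD, n = 3 each, exact permutation p = 0.7, adjusted p = 0.788). WT 3, at 13.7%, was the highest library and KO 3, at 0.546%, the lowest. Over all light chain V rows the lambda share was 3.08%, 2.73% and 11.5% in WT and 8.05%, 5.43% and 0.478% in KO.

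**Figure D4:**
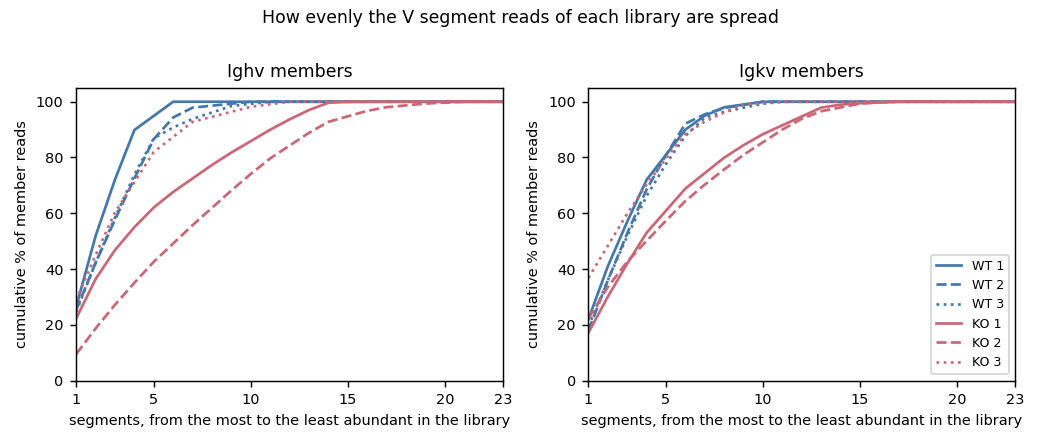
Cumulative share of member reads (y axis, %) against the number of segments, taken from the most to the least abundant in each library (x axis), for Ighv and Igkv members. The curves of KO 1 and KO 2 rise slowest, with the top 3 Ighv segments at 46.8% and 27.2% of the member reads, while KO 3 (60.4%) lies with the WT libraries (57.7% to 72.2%).

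By family, Ighv1, the largest heavy chain family of the mouse, held 14 of the 23 Ighv members. It took 53.9%, 42.9% and 47.7% of Ighv reads in WT and 54.2%, 55.5% and 32.4% in KO. Ighv5 took 0% to 26.6% in WT and 8.97% to 17.1% in KO, and Ighv3 took 0% to 20.6% and 6.38% to 11.7%. Among Igkv families, Igkv4 with 6 members took 0.93% to 31.8% in WT and 15.2% to 22.95% in KO. Igkv6 with 3 members took 7.06% to 28.6% in WT and 0.48% to 20.05% in KO. The family shares overlapped between the genotypes in all of these. Among families of more than 1 member, all KO shares were above WT in Igkv1, given above with Igkv1-117. The Igkv1 share includes the reads of Igkv1-117, so it is not a separate result. All KO shares were below WT in Ighv6, at 7.81%, 16.0% and 19.9% in WT and 7.25%, 1.29% and 2.76% in KO. Both families were picked out by these values. Of all tested genes, 25.7% had CPM that did not overlap between the groups, in either direction.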

How the data were processed

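RNA of GFP-positive splenic Treg cells from 3 WT and 3 KO libraries was analysed from the authors' deposited raw counts per gene. Per the submitters' processing notes, their tools included HISAT2 2.1.0, fastp 0.23.2, DESeq2 1.34.0 and Picard, with mm10 as the genome build. The counter, the strand setting and the handling of reads with several matches are stated in none of the labels or notes used here. This touches V segments with close relatives. Counts were compared with edgeR 4.0.16 (R 4.3.3; filterByExpr with a minimum count of 10 and a minimum total of 15, TMM normalization, quasi-likelihood F test, Benjamini-Hochberg over 13602 genes, threshold 0.05). Shares of segments and families were taken of all Ighv, Igkv or Iglv counts of a library, and effective numbers and the lambda share over members, with Wilson 95% intervals and a floor of 3 counts. Intervals and floors cover counting error only. The 9 measures per library were compared by exact permutation tests (SciPy 1.17.1). Alternatives used DESeq2 1.42.0, limma 3.58.1, other scalings and filters, a replicate block and libraries left out. Tests were checked on simulated data. Named genes were Smarcd2, the leading 4 members of each locus, members with at least 10% of a locus or 90% of their counts in 1 library, called members and the listed marker genes; others are marked. The members and lists were chosen with earlier results of these data known. Total counts were 18167053 to 22502804 per library.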

Additional observations from a re-analysis of the deposited data

How the results depend on the processing

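Igkv1-117 passed in all 15 settings compared, with log2 fold changes of 4.95 to 6.44 and a highest adjusted p of 0.0105. These settings refit the same libraries, and they include the fit with no filter and 2 chosen after seeing the data. Where the filter on low counts was applied, Igkv1-117 passed it through its KO libraries alone. The tally is therefore not separate support. Members called higher in KO numbered 1 with the main settings, 19 with no filter on low counts and 2 with DESeq2. With 1 library left out they numbered 1 to 6. Over all genes, 877 of 13602 were called with the main settings, 1624 of 24676 with no filter and 964 of 13918 with DESeq2. Members called lower numbered 0, and 2 with no filter (Igkv14-100 and Igkv16-104, both seen in WT 3 alone). At an unadjusted p under 0.05, 2 members passed.

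With 3 reads needed to count as seen, 1 member was seen in all libraries, 9 in all KO libraries and 9 in a single library. Members seen in a single library numbered 13 with a minimum of 10 summed reads and 0 with a minimum of 50. Leaving out 1 library gave 4 to 8 members seen in all libraries, 16 to 29 in all KO libraries, 6 to 11 in all WT libraries and 4 to 12 in a single library. Fewer libraries make these counts easier to reach by construction.

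The KO minus WT difference in the largest Ighv share turned from -2.75 to 1.344 percentage points without KO 2 (-5.96 to 1.344 with 1 library left out). The lambda difference turned from -2.05 to 1.502 percentage points without WT 3 (-4.23 to 1.502) and to 0.48 without the largest segments. The cause was not tested. Without both KO 1 and KO 2, the log2 fold changes of the macrophage genes Adgre1 and Csf1r turned from 0.81 and 0.76 to -1.29 and -1.14 (-0.29 to 1.29 and -0.09 to 1.22 with 1 library left out).

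Deviations from the group mean had same-number correlations of -0.145, -0.045 and 0.155 between WT and KO libraries. These lay within the range of different-number pairs, -0.206 to 0.231. With 3 libraries per group they cannot exclude that the replicate numbers pair the libraries. With a replicate block 738 genes were called, with 1 member higher and 0 lower. The paired exact p was 0.25 for summed Igkv members and for the effective number of Ighv members, the smallest that 3 pairs allow. For the effective number, the limit set by the choice of members holds here too. Depth limits single segments, since 3 reads correspond to 0.133 to 0.165 CPM.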

Other observations

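Position within the kappa locus varied between libraries. Igkv rows farther from Igkc than the median row held 46.0%, 31.8% and 73.5% of Igkv reads in WT and 44.9%, 62.7% and 70.2% in KO. WT 3 was thus the highest library and WT 2 the lowest. Igkv segments on the plus strand held 31.7%, 32.7% and 53.5% in WT and 32.7%, 48.6% and 61.5% in KO. Ighv rows farther from Ighm than the median row held 43.0%, 45.1% and 47.2% in WT and 54.8%, 52.7% and 48.3% in KO. All KO values were above WT, with KO 3 closest to it. These differences were not tested.

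Of the 130 V rows annotated as pseudogenes, 5 had any read, 15 reads in all, while 120 of the other 218 V rows had reads.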
